A study of Caenorhabditis elegans with 5 samples.

Results

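The comparison set the triple mutant met-2 set-25;set-32 against the double mutant met-2 set-25, and so asked what the further loss of SET-32 did to nascent RNA where MET-2 and SET-25 were already absent. It used 2 of the 5 pre-mRNA-seq libraries of the study, 1 per genotype, and 99764 of 100270 genomic windows of 1 kb, since 506 windows that the authors marked as misannotated were left out. The triple mutant carried met-2(n4256), set-25(ok5021) and set-32(ok1457), and the double mutant carried the same met-2 and set-25 alleles with set-32 intact. A second pair served for comparison, the single mutant set-32(ok1457) against N2 wild type (WT), in which MET-2 and SET-25 were present. The remaining library, hrde-1 (tm1200, spelled tm-1200 in the labels), is given for reference. All libraries came from whole young adult animals of C. elegans kept at 19 °C with OP50 bacteria as food, and the RNA was recovered from sheared chromatin after immunoprecipitation of RNA polymerase II carrying the serine 2 phosphate of elongating enzyme.

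Methylation of lysine 9 of histone H3 marks silent chromatin. In C. elegans, MET-2 adds the first methyl groups and SET-25 can complete the trimethylated form, H3K9me3. SET-32 is a further SET-domain protein needed for H3K9me3 at targets of germline nuclear RNAi, the pathway in which the Argonaute HRDE-1 carries small RNAs to nascent transcripts and silences them across generations. All 3 are called HMTs here, for histone methyltransferases. The authors' lists name 191 windows as GRTS, native targets whose transcriptional silencing needs germline nuclear RNAi, and 215 as GRH, native targets whose H3K9me3 needs it, with 25 windows in both. The lists were drawn from earlier work on hrde-1. Further lists name the windows whose H3K9me3 was lost in each HMT mutant. The windows carry no gene names, so loci are given by position in the ce6 build, counted from 1.

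Values were RPKM, which for a 1 kb window is the number of reads scaled to a common library size. A single read was worth 3.09 RPKM in the triple mutant, against 1.49 RPKM in the double mutant, so the libraries held 323635 and 669927 aligned reads, and 20 RPKM stood for 6.47 and 13.4 reads. With 1 library per genotype there was no replicate check, no p-value could be given, and every interval covers counting error only. The genes for ribosomal RNA, at I 15060001 to 15073000, took 37.4% of the triple mutant library and 5.75% of met-2 set-25, and likewise 27.9% of set-32 and 4.66% of WT. The triple mutant and set-32 were made as one library set and met-2 set-25, WT and hrde-1 as another, with other barcodes at the 5′ end, so that in both pairs the loss of SET-32 and the library set cannot be told apart.

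As deposited, most windows were lower in the triple mutant. Among the 8430 unlisted windows (those in none of the lists) whose pair mean reached 20 RPKM, the median ratio of the triple mutant to met-2 set-25 was 0.564. Triple mutant values were therefore also multiplied by 1.77 to bring this median to 1, and the outcome is called rescaled. For set-32 over WT the corresponding median was 0.661 and the multiplier 1.51. One multiplier did not bring all levels to 1. The rescaled median ratio was 0.888 in windows of 20 to 50 RPKM in WT, 1.02 in windows of 100 to 200 RPKM and 1.27 in windows of 200 RPKM or more, and the same 3 classes had 0.911, 0.997 and 1.19 in set-32 over WT. In both pairs, therefore, the most transcribed windows stood above the others. The same point is visible in the scatter of the deposited values, in which the most abundant windows lie above the line of the median ratio.

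**Figure D1:**
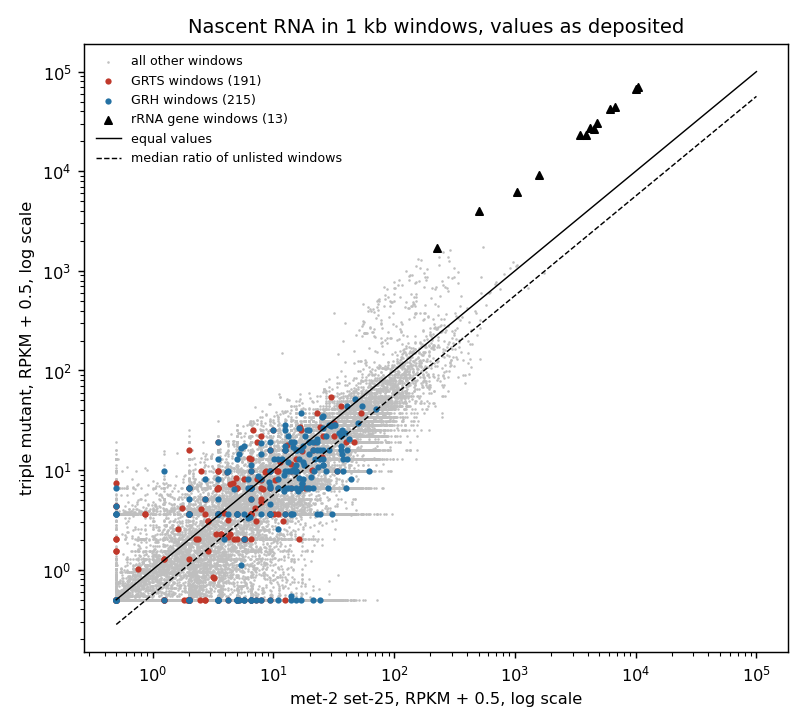
Nascent RNA in the triple mutant (vertical axis) against met-2 set-25 (horizontal axis), RPKM as deposited plus 0.5, both axes logarithmic; each point is a 1 kb window, with GRTS, GRH and rRNA gene windows in colour. The dashed line is the median ratio of unlisted windows, 0.564, and the 13 rRNA gene windows lie far above both lines.

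The locus of set-32 itself was read first, in the windows that the study's primer list places there (the build of those positions is not given in the sources used here). At I 9519001 to 9521000 the level was 3.09 RPKM in the triple mutant, against 8.96 RPKM in the double mutant, and 2.70 RPKM in set-32 against 10.5 RPKM in WT, with 10.3 RPKM in hrde-1. Both libraries labelled as set-32 mutants were thus the lowest of the 5. The counts behind these values were small, 2 reads in the triple mutant and 12 in met-2 set-25, and the rescaled ratio of 0.61 had a counting interval of 0.066 to 2.75, so a difference was not detectable at this depth. The region used as a control for chromatin immunoprecipitation, II 6708001 to 6710000, held 0 reads in the triple mutant and 1 in met-2 set-25.

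A further pair of genes on the same primer list differed from each other. tba-1, which encodes an alpha-tubulin, had 43.2 RPKM in the triple mutant, against 80.6 RPKM in the double mutant, a rescaled ratio of 0.95 (0.49 to 1.74). oma-1, a gene needed for oocyte maturation and transcribed in the germline, had 13.9 RPKM in the triple mutant, against 66.4 RPKM in the double mutant at IV 8889001 to 8891000, a rescaled ratio of 0.37 (0.16 to 0.74). In the other pair oma-1 had 40.4 RPKM in set-32 animals and 93.9 RPKM in WT, rescaled to 0.65 (0.46 to 0.90). oma-1 was thus lower than the rest of the library in both set-32 mutants, on 9 reads in the triple mutant. In the triple mutant pair its window IV 8889001 to 8890000 had 0.47 (0.16 to 1.10), an interval that includes 1. IV 8890001 to 8891000 had 0.26 (0.052 to 0.82). In whole animals of 2 library sets, fewer germ cells, less RNA per germ cell and the library set cannot be told apart. The part of this difference in the results on germline targets was not tested.

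Windows in which silencing depends on nuclear RNAi stood above unlisted windows as a group, at a very low level. The median GRTS window held 3.09 RPKM in the triple mutant, against 3.73 RPKM in the double mutant as deposited, and 35.4 RPKM in hrde-1. The rescaled value was above met-2 set-25 in 105 of the 191 windows, below it in 72 and at 0 in both libraries in 14. The median rescaled ratio was 1.22, and the ratio of the summed reads was 1.59 (1.40 to 1.80), against medians of 1.00 and a sum ratio of 1.16 (1.15 to 1.16) for the 94865 windows in no list. As deposited, the GRTS median ratio was 0.908 and the sum ratio 0.898, beside 0.826 and 0.653 for windows in no list. GRTS windows thus stood above unlisted ones on either scale, while a ratio above 1 rested on the rescaling. With 2 other scales the median was 1.05 and 1.03, and over windows of whole reads in both libraries it was 1.00. The GRTS level in the triple mutant thus remained far under that of hrde-1 on either scale.

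A single window was called if its values, each with 1 RPKM added, differed at least 2-fold, the larger value was at least 20 RPKM and the 95% counting interval of the ratio excluded 1. After the rescaling 7.31% of the 17859 windows that could be called were called higher in the triple mutant and 3.55% lower. Of the 31 GRTS windows that could be called, 10 were higher (32.3%) and 0 were lower. Of these 10, 7 were under 20 RPKM in the double mutant and could be called only through a higher triple mutant, so this share and the shares of the other lists below are descriptions. The other 160 GRTS windows did not reach 20 RPKM in either library after the rescaling. As deposited, where 2.24% of 13814 windows were called higher and 28.5% lower, 1 GRTS window of 20 was higher and 2 were lower.

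The called GRTS windows lay on chromosomes I, II and IV. II 2157001 to 2158000 had 54.0 RPKM in the triple mutant, against 29.4 RPKM in the double mutant, and 66.5 RPKM in set-32, 51.2 RPKM in WT animals and 182 RPKM in hrde-1. Its rescaled ratio was 3.26 (1.53 to 6.27). It belongs to II 2150001 to 2163000, 13 kb with 9 GRTS windows, whose mean was 20.7 RPKM in the triple mutant, against 19.4 RPKM in the double mutant, or 1.88 (1.44 to 2.46) after the rescaling. In that block 3 windows were called, the others being II 2154001 to 2155000 (37.1 RPKM in the triple mutant, against 22.4 RPKM in the double mutant) and II 2162001 to 2163000 (26.4 RPKM against 16.1 RPKM), and hrde-1 stood at 96.3 RPKM.

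II 2519001 to 2520000, with 43.2 RPKM in the triple mutant, against 35.8 RPKM in the double mutant, was at 2.14 (1.02 to 4.31). The remaining called GRTS windows were at 24.7 RPKM or less in the triple mutant and rested on few reads. II 10939001 to 10940000 had 21.6 RPKM in the triple mutant, against 7.46 RPKM in the double mutant, which is 7 and 5 reads. I 237001 to 238000 had 24.7 RPKM in the triple mutant, against 6.34 RPKM in the double mutant, and II 12283001 to 12284000, a window of both lists, had 24.7 RPKM against 9.45 RPKM. I 232001 to 233000 had 18.5 RPKM in the triple mutant, against 6.77 RPKM in the double mutant, a rescaled ratio of 4.85 (1.12 to 18.2). IV 526001 to 528000 held a called pair of neighbouring windows, with 15.4 and 18.5 RPKM in the triple mutant and 1.49 and 2.98 RPKM in the double mutant, from 1 and 2 reads in the double mutant. The rescaled ratio of I 237001 to 238000 was 6.90, with a counting interval of 1.97 to 33.3, which shows how little these single windows fix the size of the difference.

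Of the 6 longest GRTS blocks, 2 had intervals that lay above 1, II 2150001 to 2163000, given above, and I 226001 to 233000. V 5182001 to 5201000, the longest with 19 kb and 18 GRTS windows, had 6.39 RPKM in the triple mutant, against 9.65 RPKM in the double mutant, a rescaled ratio of 1.17 (0.79 to 1.68), beside 120 RPKM in hrde-1. IV 4124001 to 4132000 had 10.8 RPKM in the triple mutant, against 15.2 RPKM in the double mutant, a rescaled ratio of 1.26 (0.79 to 1.97), beside 190 RPKM in hrde-1. V 8826001 to 8837000 and V 8868001 to 8879000, which hold reads split between several matches and have nearly equal values, had rescaled ratios of 1.07 and 1.12. The intervals of these 4 blocks include 1. I 226001 to 233000, with 9.26 RPKM in the triple mutant, against 7.70 RPKM in the double mutant, had 2.13 (1.19 to 3.76).

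GRH windows differed less after the rescaling. Their median was 7.72 RPKM in the triple mutant, against 11.7 RPKM in the double mutant, the median rescaled ratio was 1.09, and the sum ratio 1.23 (1.13 to 1.34), with 119 windows above met-2 set-25 and 87 below. Of the 91 GRH windows that could be called, 12 were higher (13.2%) and 3 lower (3.30%). As deposited the median ratio was 0.711, below the 0.826 of windows in no list, while the sum ratio was 0.695, above their 0.653. Then 0 windows were higher and 13 lower of 62, beside 28.5% lower among all windows that could be called. The 190 windows in GRH alone had a sum ratio of 1.20 (1.10 to 1.32), and the 25 windows in both lists had 1.69 (1.21 to 2.38). In sum ratios and rescaled medians GRH windows thus lay closer to the unlisted windows than GRTS windows did, with overlapping intervals for the windows in both lists. The deposited median of GRH lay farther from that of unlisted windows than the GRTS one did, on the lower side.

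Among the called GRH windows of highest counts, IV 8397001 to 8398000 had 37.1 RPKM in the triple mutant, against 16.4 RPKM in the double mutant, a rescaled ratio of 4.00 (1.62 to 10.0). I 10785001 to 10786000 had 27.8 RPKM in the triple mutant, against 11.9 RPKM in the double mutant, or 4.12 (1.41 to 12.3). II 11172001 to 11173000, V 15590001 to 15591000 and IV 2647001 to 2648000 had rescaled ratios of 3.67, 2.44 and 2.39. All 5 of these windows were between 24.7 and 37.1 RPKM in the triple mutant, and the last 2 named had intervals that began at 1.00.

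The 3 GRH windows called lower included an otherwise well transcribed one. III 2605001 to 2606000 had 9.26 RPKM in the triple mutant, against 61.9 RPKM in the double mutant, a rescaled ratio of 0.26 (0.053 to 0.84). I 5980001 to 5981000 had 7.72 RPKM in the triple mutant, against 43.3 RPKM in the double mutant. V 5477001 to 5478000 held 0 reads in the triple mutant, against 16 in met-2 set-25 (23.9 RPKM). It lies in V 5472001 to 5479000, 7 kb of GRH windows, which had 4.41 RPKM in the triple mutant, 17.0 RPKM in the double mutant, 16.4 RPKM in set-32, 41.9 RPKM in WT animals and 117 RPKM in hrde-1. This block was the 1 of the 6 longest GRH blocks with a rescaled ratio below 1, at 0.46 (0.21 to 0.89). The other 5 had rescaled ratios of 1.15 to 1.60, and ratios of 0.647 to 0.902 as deposited. Of these, only the highest, V 15588001 to 15595000, had an interval that lay above 1 (1.05 to 2.42). The intervals of the others included 1.

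Windows whose H3K9me3 needs an HMT were above unlisted windows in summed reads whichever HMT the list named. The ratio of summed reads, without the rRNA genes, was 1.31 (1.25 to 1.38) for the 782 windows of SET-32-dependent H3K9me3, 1.36 (1.32 to 1.40) for the 2632 windows of MET-2 SET-25-dependent H3K9me3 and 1.37 (1.33 to 1.40) for the 3233 windows that lost the mark in the triple mutant. Many listed windows were silent, with 247, 1113 and 1410 windows at 0 reads in the triple mutant, and the median rescaled ratio over all windows of each list was 1.00. Among windows with a mean of the pair of at least 5 RPKM the medians were 1.28, 1.26 and 1.27 for the 3 lists, 1.21 for GRH, 1.71 for GRTS and 0.958 for windows in no list. This filter uses the same values as the ratio, and a low window can pass it through a high value in a single library. These medians are therefore descriptions.

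In the calls, too, each HMT list had a larger share higher than windows in no list. Outside the rRNA genes, 33 of 200 windows of SET-32-dependent H3K9me3 were called higher (16.5%) and 5 lower, 80 of 556 of MET-2 SET-25-dependent H3K9me3 were higher (14.4%) and 14 lower, and 97 of 620 of the list for all 3 HMTs were higher (15.6%) and 12 lower. Windows in no list had 6.87% higher and 3.63% lower. Leaving out GRTS and GRH windows gave 21 higher of 136, 68 of 493 and 83 of 549. The 170 windows that lost H3K9me3 in the triple mutant and in neither other HMT mutant had a sum ratio of 1.35 (1.16 to 1.58), with 4 of 18 higher and 0 lower. These shares are descriptions, since neighbouring windows share transcripts and are not replicates. The box plot of window ratios shows every list to the upper side of the unlisted windows on both scales.

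**Figure D2:**
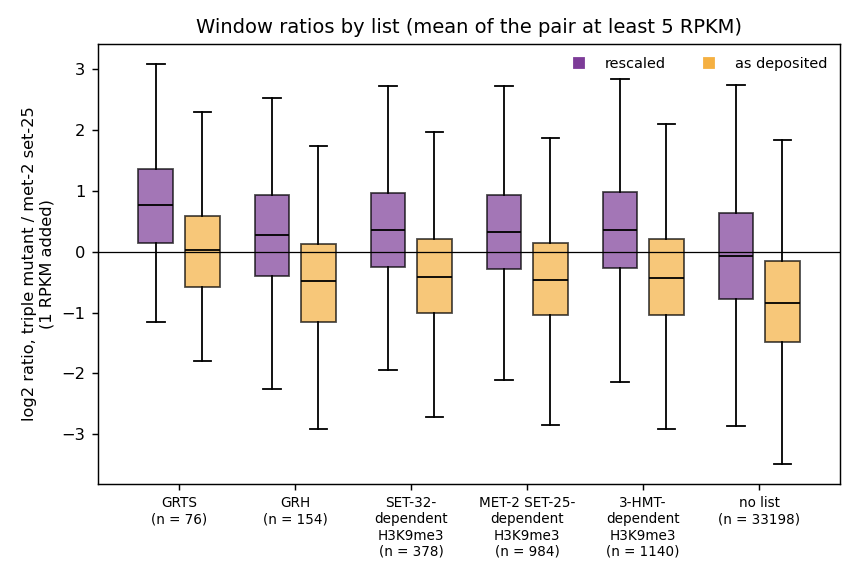
Log2 ratio of the triple mutant to met-2 set-25 by list, rescaled (left box of each pair) and as deposited (right box), for windows with a pair mean of at least 5 RPKM and without rRNA genes; boxes span the quartiles with the median as a line, and whiskers reach 1.5 times the box. The rescaled medians correspond to ratios of 1.71 for GRTS, 1.21 for GRH and 0.958 for windows in no list. The level filter uses the same values as the ratio.

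Across the genome 1306 windows were called higher and 634 lower after the rescaling, of which 13 higher windows were the rRNA genes. The 1293 other higher windows had a median of 29.3 RPKM in the triple mutant, against 14.2 RPKM in the double mutant, beside 17.0 RPKM in set-32, 15.5 RPKM in WT animals and 17.7 RPKM in hrde-1. The 634 lower windows had a median of 3.09 RPKM in the triple mutant, against 46.3 RPKM in the double mutant, beside 19.8 RPKM in set-32, 38.2 RPKM in WT animals and 32.8 RPKM in hrde-1. The windows were chosen on the first pair of values, and the other 3 libraries played no part in the choice. Of the higher windows 129 were in a list, and of the lower ones 20. In no list were 1164 of the 1293 higher and 614 of the 634 lower windows, beside 16934 of the 17846 windows outside the rRNA genes that could be called. Most calls stood alone, with 944 of 1083 higher runs and 454 of 529 lower runs being single windows, while 61 higher runs and 40 lower runs were 3 kb or longer.

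The rRNA genes held the longest higher run. Their 13 windows averaged 28798 RPKM in the triple mutant, against 4427 RPKM in the double mutant, and 21439 RPKM in set-32 against 3582 RPKM in WT. The ratio was 6.51 as deposited and 11.5 rescaled in the first pair, and 9.06 rescaled in the second. The rRNA genes were thus the highest in both set-32 mutants, which also form one library set, and 12 of the windows are also in all 3 HMT lists.

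The other long runs called higher fell into 2 kinds. In the first kind the triple mutant was the highest library. I 7258001 to 7267000 had 81.0 RPKM in the triple mutant, against 50.2 RPKM in the double mutant, with 16.4 RPKM in set-32, 14.2 RPKM in WT animals and 31.3 RPKM in hrde-1. X 12468001 to 12475000 had 84.3 RPKM in the triple mutant, against 47.8 RPKM in the double mutant, with 14.5 RPKM in set-32, 14.7 RPKM in WT animals and 30.1 RPKM in hrde-1. Both runs were therefore well above WT already in met-2 set-25, and the rescaled ratios of the triple mutant to it were 2.86 (2.40 to 3.40) on I and 3.13 (2.56 to 3.81) on X. Their flanks of 3 kb on either side were lower, at 2.57 RPKM in the triple mutant, against 9.95 RPKM in the double mutant around the run on I, and at 1.54 RPKM against 1.74 RPKM around the run on X.

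X 8149001 to 8157000 was low in all libraries, with 19.4 RPKM in the triple mutant, against 3.96 RPKM in the double mutant, and with 9.62 RPKM in set-32 animals and 2.78 RPKM in WT. Its rescaled ratios were 8.71 (5.15 to 15.3) for the triple mutant over met-2 set-25 and 5.24 (3.17 to 9.20) for set-32 over WT, and their log2 difference of 0.73 had an interval that includes 0. I 14623001 to 14630000, with 52.5 RPKM in the triple mutant, against 30.1 RPKM in the double mutant, had 3.09 (2.40 to 3.98) and 2.49 (2.01 to 3.07) in the same order. Both runs were thus higher in both set-32 mutants.

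In the second kind set-32 was above the triple mutant as deposited. I 14885001 to 14892000, 7 windows that all lost H3K9me3 both in the triple mutant and in met-2 set-25, had 105 RPKM in the triple mutant, against 75.1 RPKM in the double mutant, and 153 RPKM in set-32 against 77.3 RPKM in WT. No window of this run came out at whole reads in both libraries of the pair, and their values were close, at 95.7 to 111 RPKM in the triple mutant. The windows may thus share reads split between several matches and are not separate observations. I 14856001 to 14863000 had 239 RPKM in the triple mutant, against 202 RPKM in the double mutant, and 250 RPKM in set-32 against 141 RPKM in WT. hrde-1 had 70.5 RPKM in the first of these runs and 283 RPKM in the second, where it was the highest library as deposited. After the rescaling of both mutants the second of these runs was the higher in the triple mutant, at 424 RPKM, against 379 RPKM in set-32. Their rescaled ratios were 2.49 (2.10 to 2.94) and 2.10 (1.89 to 2.34), below the 2.99 and 2.68 of set-32 over WT.

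III 6567001 to 6575000 stood apart, since met-2 set-25 was the lowest library there and the triple mutant the next lowest. The run had 33.7 RPKM in the triple mutant, 11.5 RPKM in the double mutant, 116 RPKM in set-32, 98.3 RPKM in WT animals and 103 RPKM in hrde-1. The rescaled ratio of 5.20 (3.67 to 7.25) thus set the triple mutant above a double mutant that was itself under the other libraries, and all 8 windows of the run were called. None of these windows came out at whole reads in both libraries of the pair, so they may share split reads. The flanks of this run were at 12.8 RPKM in the triple mutant, against 12.5 RPKM in the double mutant.

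**Figure D3:**
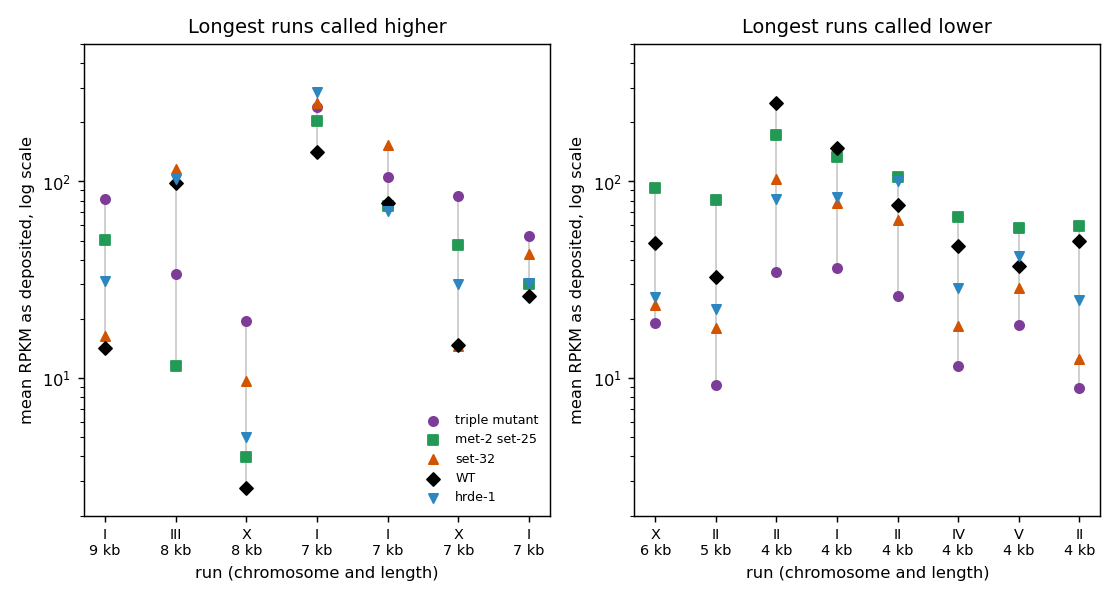
Mean RPKM as deposited (logarithmic vertical axis) in the 5 libraries for the longest runs of windows called higher (left panel, without the rRNA genes) and lower (right panel) in the triple mutant, labelled by chromosome and length in kb. The triple mutant is the lowest library in all 8 runs called lower, and met-2 set-25 is the lowest in the 8 kb run on III.

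The runs called lower were shorter, 4 to 6 kb, and as deposited the triple mutant was the lowest of the 5 libraries in each of the 8 longest. II 13294001 to 13299000 had 9.26 RPKM in the triple mutant, against 80.6 RPKM in the double mutant, with 18.0 RPKM in set-32, 32.8 RPKM in WT animals and 22.4 RPKM in hrde-1, a rescaled ratio of 0.20 (0.11 to 0.34). X 4143001 to 4149000 had 19.0 RPKM in the triple mutant, against 92.3 RPKM in the double mutant, with 23.7 RPKM in set-32, 48.5 RPKM in WT animals and 25.8 RPKM in hrde-1, or 0.37 (0.25 to 0.51), and its rescaled triple mutant value of 33.7 RPKM was above hrde-1. In both of these met-2 set-25 was well above WT, so part of the difference lay in a high value of the double mutant.

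II 11757001 to 11761000 had 34.7 RPKM in the triple mutant, against 172 RPKM in the double mutant, with 102 RPKM in set-32 animals and 252 RPKM in WT, and ratios of 0.36 (0.26 to 0.49) and 0.62 (0.53 to 0.71) in the 2 pairs. II 8476001 to 8480000 had 8.88 RPKM in the triple mutant, against 59.3 RPKM in the double mutant, with 12.6 RPKM in set-32 animals and 49.7 RPKM in WT, and ratios of 0.27 (0.12 to 0.47) and 0.38 (0.25 to 0.57). IV 4473001 to 4477000 had 11.6 RPKM in the triple mutant, against 65.7 RPKM in the double mutant, with 18.4 RPKM in set-32 animals and 46.8 RPKM in WT. These 3 runs, like oma-1, were lower in both set-32 mutants after the rescaling. I 7082001 to 7086000 (0.48), II 7283001 to 7287000 (0.44) and V 9327001 to 9331000 (0.57) completed the list. No window of the 8 runs was in GRTS or GRH, but only 31 GRTS and 91 GRH windows were among the 17846 outside the rRNA genes that could be called.

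Among single windows called higher outside the rRNA genes, those whose counting bound lay farthest from 1 formed a distinctive group. IV 8428001 to 8429000 had 1319 RPKM in the triple mutant, against 157 RPKM in the double mutant, and 396 RPKM in set-32 against 102 RPKM in WT. III 502001 to 503000 had 1130 RPKM in the triple mutant, against 151 RPKM in the double mutant, IV 11474001 to 11475000 had 1272 RPKM against 167 RPKM, and II 11167001 to 11168000 had 997 RPKM against 124 RPKM in the same order. With I 6105001 to 6106000 and II 14497001 to 14498000 these 6 windows had rescaled ratios of 13.3 to 14.8 in the triple mutant over met-2 set-25 and of 4.82 to 6.94 in set-32 over WT. All 6 were thus many-fold higher in both set-32 mutants. The ratio was the larger in the triple mutant pair, with log2 differences of 1.04 to 1.55 whose intervals all lie above 0. The choice by the counting bound of that same pair favours a larger ratio there, and the intervals do not allow for the choice. None of the 6 windows is in one of the lists, and nor were 16934 of the 17846 windows outside the rRNA genes that could be called.

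II 10933001 to 10935000 had the largest ratio of the named loci, through a low value of the double mutant. It held 261 RPKM in the triple mutant, against 21.3 RPKM in the double mutant, with 491 RPKM in set-32, 328 RPKM in WT animals and 554 RPKM in hrde-1. The rescaled ratio was 21.7 (14.8 to 34.3), against 2.27 (2.02 to 2.54) for set-32 over WT. As deposited the triple mutant was thus between the double mutant and the other 3 libraries, and the rescaled value of 462 RPKM was above WT.

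The windows lower with the firmest counts were poor in reads in the triple mutant. III 10820001 to 10822000 held 2 reads in the triple mutant (3.09 RPKM) and 121 in met-2 set-25 (90.3 RPKM), a rescaled ratio of 0.061 (0.0073 to 0.22). X 4148001 to 4149000 held 0 reads in the triple mutant and 48 in met-2 set-25 (71.6 RPKM), which with a floor of 3 reads in that library is at least 4.36-fold lower after the rescaling. V 9097001 to 9098000 had 12.4 RPKM in the triple mutant, against 152 RPKM in the double mutant, with 98.7 RPKM in hrde-1 and 14.4 RPKM in set-32. I 8866001 to 8867000 and V 11888001 to 11889000, at 0 reads in the triple mutant, had 56.7 and 55.2 RPKM in the double mutant and no more than 13.7 RPKM in the other libraries, so there the double mutant was the library that stood out.

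Chromosome X, which is largely silenced in the germline, had a higher median ratio than the autosomes when windows were chosen by the level of the pair itself. Among windows with a pair mean of at least 5 RPKM the median rescaled ratio was 1.20 on X and 0.952 on the autosomes, or 0.711 and 0.555 as deposited. Of the windows that could be called, 215 of 1442 on X were higher (14.9%), against 1078 of 16404 on autosomes (6.57%), while the shares called lower were 3.81% and 3.53%. The summed reads differed little, with a ratio of 1.20 (1.19 to 1.22) on X and 1.16 (1.15 to 1.17) on the autosomes.

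With windows grouped by their WT level instead, the difference between X and the autosomes was small in the lowest class and grew with the level. In windows of 5 to 20 RPKM in WT the rescaled medians were 0.929 on X and 0.923 on the autosomes, in windows of 20 to 50 RPKM 0.999 and 0.877, and in windows of 50 RPKM or more 1.30 (179 windows) and 0.952 (3297 windows). In set-32 over WT the medians were 1.08 on X and 0.994 on the autosomes, and the 3 classes had 0.905 and 0.994, 0.875 and 0.913, and 1.17 and 0.933 in the same order. In both pairs, therefore, X was the higher in the top class, while in the lower classes X was below the autosomes in set-32 over WT. The cause of the difference between X and the autosomes was not tested.

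Autosome arms, where H3K9me3 is dense in C. elegans, were slightly above autosome centres in medians, but not on every autosome in summed reads. The median rescaled ratio was 0.999 in arms (the outer 30% at each end) and 0.919 in centres, and arms were above centres on each of the 5 autosomes, with medians of 0.978 to 1.04 in arms and 0.853 to 0.923 in centres. Chromosome I had the widest gap, 1.04 in arms and 0.853 in its centre. In set-32 over WT arms and centres had nearly equal medians of 0.996 and 0.994. On X, arms and centre had the same median of 1.20. The ratio of summed reads was 1.17 (1.16 to 1.18) in autosome arms and 1.15 (1.14 to 1.16) in centres. It was higher in arms on I (1.27 against 1.06) and II (1.23 against 1.16). On III (1.06 against 1.11), IV (1.18 against 1.21) and V (1.10 against 1.24) it was lower in arms.

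**Figure D4:**
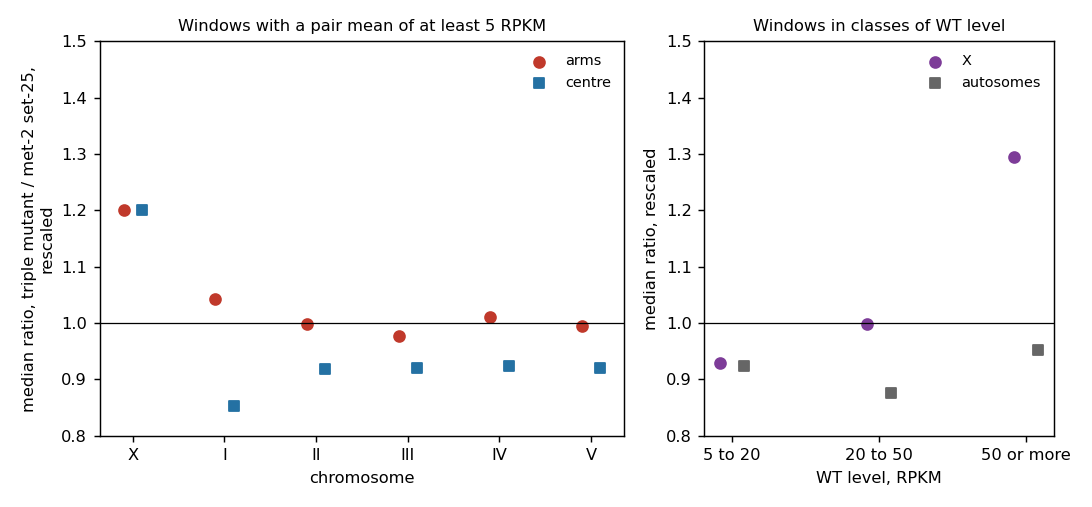
Median rescaled ratio of the triple mutant to met-2 set-25 on X and the autosomes, split into arms and centre (left panel, pair mean of at least 5 RPKM), and on X and autosomes in 3 classes of WT level (right panel). X lies at 1.20 and the autosome centres at 0.853 to 0.923, and X and autosomes differ least in the lowest class.

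The loss of SET-32 could be set beside the same loss with MET-2 and SET-25 present, since the 2 pairs share no library. Both pairs set the same library set over the other. A library set shift of equal size in both pairs would cancel in their difference. It would also make the pairs alike, so in what they share the loss of SET-32 and the library set cannot be told apart. The rRNA genes had a log2 difference of 0.35 (0.33 to 0.37) between the pairs. For set-32 over WT, 8.76% of 16638 windows were called higher and 4.23% lower. The 417 windows higher in both pairs were 31.9% of those higher in the triple mutant and 28.6% of those higher in set-32. The 82 windows lower in both were 12.9% and 11.7% of the lower ones. In 7 windows the triple mutant was called higher and set-32 lower, and in 4 windows the reverse. Over 9685 windows with a mean of the 4 libraries of at least 20 RPKM, the log2 ratios of the pairs had a Pearson r of 0.42 and a Spearman rho of 0.34 across windows, which share libraries and are not replicates.

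The summed reads of the lists gave like ratios in both backgrounds, while medians and shares called higher differed more. In GRTS the sum ratio was 1.59 (1.40 to 1.80) in the triple mutant over met-2 set-25 and 1.58 (1.47 to 1.70) in set-32 over WT, with a log2 difference of 0.01 (-0.20 to 0.21), and 21 of 51 GRTS windows were called higher in set-32 with 0 lower. In GRH the sum ratios were 1.23 and 1.34, with a log2 difference of -0.13 (-0.27 to 0.02), the medians were 1.09 and 1.32, and 35 of 128 windows were called higher in set-32 with 3 lower, beside the 12 of 91 above. For SET-32-dependent H3K9me3 the log2 difference was -0.07 (-0.15 to 0.01), for MET-2 SET-25-dependent H3K9me3 -0.02 (-0.07 to 0.03) and for the list for all 3 HMTs 0.02 (-0.03 to 0.07). The medians of the SET-32 list were 1.00 in the first pair and 1.17 in the second. The differences in medians and shares were not tested, and the libraries differed in depth. Of these 5 sums none had an interval that excluded 0, while windows in no list had 0.04 (0.03 to 0.05). The 170 windows that lost the mark in the triple mutant alone had 0.21 (-0.05 to 0.48). The intervals bound the differences by counting error only, and library to library variation was not measured.

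**Figure D5:**
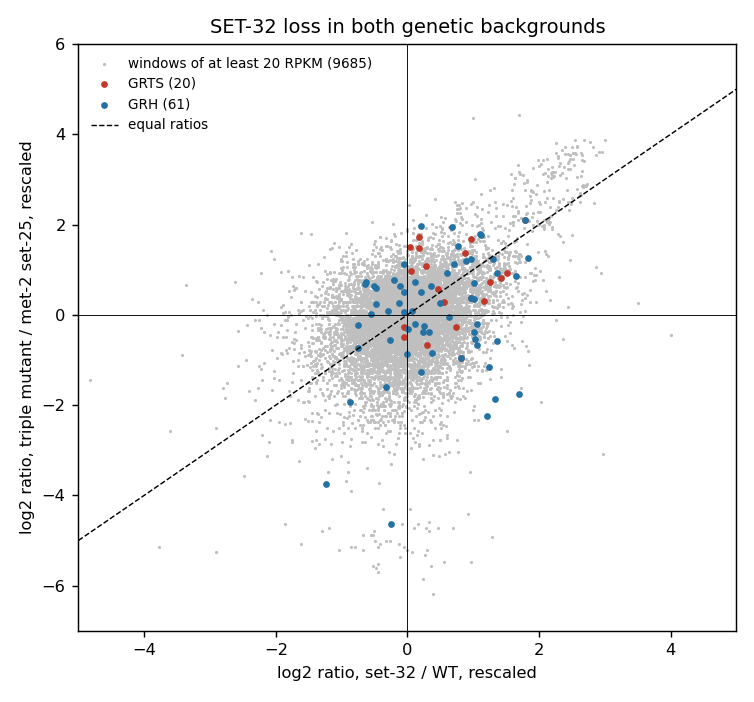
Log2 ratio of the triple mutant to met-2 set-25 (vertical axis) against log2 ratio of set-32 to WT (horizontal axis), both rescaled, for 9685 windows with a 4-library mean of at least 20 RPKM; GRTS (20) and GRH (61) windows are coloured and the dashed line marks equal ratios. A group of points extends to the upper right, where the named windows many-fold higher in both pairs lie above the dashed line. A scatter of points with few or no triple mutant reads lies at the bottom.

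The single windows named next were chosen for the widest differences between the pairs. That choice favours wide values, and the counting intervals do not allow for it. Among windows with a 4-library mean of at least 50 RPKM, the widest positive differences were at II 10933001 to 10935000, given above, and at I 4176001 to 4177000, with 120 RPKM in the triple mutant, against 38.8 RPKM in the double mutant, and 27.0 RPKM in set-32 against 40.1 RPKM in WT. The rescaled ratios there were 5.50 (3.27 to 9.41) and 1.02, a log2 difference of 2.44 (1.33 to 3.54). IV 654001 to 655000 had 534 RPKM in the triple mutant, against 203 RPKM in the double mutant, and 162 RPKM in set-32 against 202 RPKM in WT, a log2 difference of 1.94 (1.46 to 2.42). At both loci the triple mutant was the highest library. At V 17858001 to 17859000 the difference of 1.95 came from the other pair, 32.3 RPKM in set-32 against 110 RPKM in WT, and the window was not called in the triple mutant.

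The widest negative difference was at I 14653001 to 14654000, with 12.4 RPKM in the triple mutant, against 97.0 RPKM in the double mutant, and 165 RPKM in set-32 against 125 RPKM in WT. Its rescaled ratios were 0.23 (0.060 to 0.61) and 2.00 (1.52 to 2.63). X 10088001 to 10089000, II 6701001 to 6702000, III 63001 to 64000 and II 13297001 to 13298000 followed, with log2 differences of -2.67, -2.37, -2.20 and -2.14. All 5 windows were called lower in the triple mutant, on 2 to 6 reads, and the triple mutant was the lowest library in each.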

How the data were processed

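The authors sequenced RNA from immunoprecipitated RNA polymerase II chromatin, 1 library per genotype. Per the submitters' processing notes and the study's methods, reads were aligned with Bowtie 0.12.7 to WS190 (ce6), only perfect matches were kept, and each of the N places a read matched received 1/N of it. The deposited values are RPKM of 1 kb windows, computed by the authors, with columns for the lists. A deposited score, the tier of WT H3K9me3, has no bounds in the sources used here and was not used. Library codes were matched to genotypes through the study's library list, and the strain codes of the H3K9me3 columns by the window counts the study states. The lists of HMT-dependent windows hold those marked in both of 2 replicates.

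Reads were recovered from the smallest step of each column, an estimate. From 78.8% to 80.4% of values above 0 came out as whole reads (tolerance 0.02 read). Ratios of summed reads have exact Clopper-Pearson counting intervals (95%), and log2 differences between pairs have approximate ones. PCR copies are not independent molecules. List medians are of log2 ratios after adding 1 RPKM, which understates changes of low windows. Where a library held 0 reads, 3 reads were the floor. Arms were the outer 30% on either side, centres the middle 40%. A run allowed a gap of 1 window. Named loci were the 8 longest runs and the 8 firmest windows by counting bound in each direction, called GRTS windows (all if 10 or fewer, otherwise 5) and GRH windows likewise, the 5 widest differences between pairs in each direction, the primer loci and the rRNA genes. As several of the firmest higher windows were rRNA genes, the firmest ones outside these genes were added after the values were seen, as were the 6 longest GRTS and GRH blocks. Members and lists were chosen with earlier results of these data known. The other settings tried were other scales, pseudocounts, levels, ratios, intervals and arm widths. Python 3.11.15, numpy 2.4.6, scipy 1.17.1, pandas 2.3.3 and matplotlib 3.10.9 were used.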

Additional observations from a re-analysis of the deposited data

Results flagged for a closer look

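At 3 of the named loci the triple mutant over met-2 set-25 and set-32 over WT went in opposite directions, each with a counting interval that excludes 1. The difference was not tested between replicates. Its interval covers counting error only and does not allow for how the loci were chosen. At the GRH window III 2605001 to 2606000 the log2 difference was -3.27 (-5.05 to -1.48), with 9.26 RPKM in the triple mutant, against 61.9 RPKM in the double mutant, and 79.1 RPKM in set-32 against 47.0 RPKM in WT. At I 14653001 to 14654000 it was -3.15 (-4.66 to -1.64). At II 7283001 to 7287000, a run of 4 windows, it was -1.51 (-2.10 to -0.92), with 26.2 RPKM in the triple mutant, against 105 RPKM in the double mutant, and 63.3 RPKM in set-32 against 76.2 RPKM in WT, where the rescaled ratio of set-32 to WT was 1.26 (1.03 to 1.54) and the deposited one 0.832.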

How the results depend on the processing

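Among windows with a pair mean of at least 5 RPKM, a filter made from the same values as the ratio, each list stood above unlisted windows on the deposited scale as well. X stood above the autosomes there too. Over all windows of a list, as deposited, the GRTS median was 0.908, the GRH median 0.711 and the SET-32 list 0.819 (0.826 for windows in no list). X had 0.711 as deposited (tried on X after the data were seen), over windows with a pair mean of at least 5 RPKM, beside 0.555 on the autosomes. The GRTS-only and GRH-only medians were then 0.902 and 0.700, and V 15588001 to 15595000 had 0.902. With the library total without rRNA as scale, GRTS stood at 1.05 and GRH at 1.00. With unlisted windows of at least 50 RPKM as scale, they stood at 1.03 and 1.00. Ratios of sums were 1.59 for GRTS, 1.23 for GRH, 1.31 for the SET-32 list, 1.36 for the MET-2 SET-25 list and 1.37 for the list of all 3 HMTs. Over windows with a pair mean of at least 1 RPKM the medians were 1.49 for GRTS and 1.22, 1.22 and 1.27 for the HMT lists in that order. At 5 RPKM they were 1.71, 1.21 (GRH), 1.28, 1.26 and 1.27, and at 20 RPKM 1.57 for GRTS and 1.31, 1.26 and 1.28 for the HMT lists. The lone window of both GRTS and GRH at that level had 0.515. Over windows of whole reads in both libraries, GRTS and GRH had 1.00. The cause of these moves was not tested.

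Windows called higher and lower were 310 and 3938 as deposited, 859 and 1138 with the total without rRNA, and 760 and 1207 with the scale from windows of at least 50 RPKM, so the share called higher was 7.30%, 43.0% and 38.6%, against 67.3% in the main setting. They were 710 and 397 at a ratio of 4, 676 and 276 where the larger value had to reach 50 RPKM, 3113 and 2851 (52.2% higher) with no counting criterion, and 689 and 203 with a 99% interval. Autosome arms had 1.01 as the outer 20% and 1.05 at a pair mean of at least 20 RPKM, where centres had 0.958 and X 1.26. The Pearson r between the pairs was 0.19 at a 4-library mean of at least 5 RPKM and 0.73 at 50 RPKM. Of the other settings, 95 values of lists and 313 of named loci moved by less than the counting error of their sums. Many of these list values were medians that stayed at exactly 1.00, as those of the MET-2 SET-25 list did on every scale. Windows without reads in either library have that ratio on any scale, so such medians say little about stability. Windows under 20 RPKM in both libraries after the rescaling could not be called one by one. No paired analysis was possible because each genotype had 1 library.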
